A study of Homo sapiens with 12 samples.

Results

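The SMARC genes encode the catalytic motors and the structural core of the human SWI/SNF (BAF) chromatin remodelling complex, and 9 of them, all of those looked for, were present in a table of 43769 genes: SMARCA4, SMARCA2, SMARCB1, SMARCC1, SMARCC2, SMARCD1, SMARCD2, SMARCD3 and SMARCE1. The rule took them by name as the SMARC core and ATPase subunits and used no measured value, and all 9 passed the filter on low counts that left 15828 genes for testing. The libraries were made from SK-N-DZ, an established human neuroblastoma cell line with amplified MYCN and wild-type ARID1A, as 1 clone that carries a doxycycline-inducible short hairpin RNA against ARID1A. The 12 RNA-seq libraries form 4 groups of 3. The Control group (genotype labelled WT) received neither agent, and the Dox group (labelled shARID1A) was given doxycycline for 4 days. The IFN group (labelled WT) was given IFNγ for 24 h, and the Dox IFN group (labelled shARID1A) was given doxycycline for 4 days and IFNγ for 24 h. All 4 groups share the clone and its hairpin, and no group had doxycycline without the hairpin, so that an effect of the drug and an effect of the knockdown cannot be told apart. The labels do not say that the 3 libraries of a group came from separate cultures, and p-values then measure only the spread between these samples.

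SWI/SNF complexes use ATP to slide or evict nucleosomes and so open DNA to transcription factors. A canonical BAF complex holds 1 ATPase, SMARCA4 (BRG1) or SMARCA2 (BRM). Its core has SMARCC1 and SMARCC2 (BAF155 and BAF170), SMARCB1 (SNF5), SMARCE1 (BAF57) and 1 of the SMARCD proteins (BAF60A, BAF60B and BAF60C). ARID1A or its paralog ARID1B marks this canonical form. The paralogs at 1 position exclude each other for the ATPase and for the SMARCD subunit, whereas SMARCC1 and SMARCC2 can pair. The question that the design puts to these genes is whether the rest of the complex changes at the mRNA level when ARID1A is targeted, when the cells meet IFNγ, or when both occur.

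Each library held between 16469832 and 21790869 counts, at which the 3 counts taken as the detection floor equal 0.135 to 0.187 CPM (counts scaled to a common library size, with TMM factors). No pair of libraries of 1 group agreed within sampling noise. ARID1A, the targeted gene, stood at 197, 186 and 165 CPM in Control, 197, 159 and 158 CPM in Dox, 192, 203 and 194 CPM in IFN, and 151, 133 and 148 CPM in Dox IFN. Control and Dox overlapped (log2 fold change −0.09, 95% interval −0.33 to 0.15, edgeR adjusted p = 0.788), so that a lower ARID1A mRNA was not detectable in the libraries labelled Dox. The 3 Dox IFN libraries lay below all 3 IFN libraries (−0.44, interval −0.69 to −0.20, edgeR adjusted p = 0.115). The fit blocked on replicate number gave an adjusted p of 0.0111 and DESeq2 gave 0.0045. Averaged over both IFNγ backgrounds, a contrast added after seeing the data, doxycycline gave ARID1A −0.27 (interval −0.44 to −0.10). Its adjusted p was 0.0606 by edgeR (7.68% of all genes called), 0.0086 in the block fit (29.0% called) and 0.0099 by DESeq2. The IFNγ label held in all 6 tested genes of a 7-gene interferon check, each called higher in IFN than in Control. All 9 adrenergic neuroblastoma markers averaged at least 1 CPM and none of 5 immune markers did, the latter summing to between 0.359 and 1.26 CPM. In bulk RNA, fewer cells with a transcript and less of it per cell cannot be told apart.

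The largest difference among the 9 genes was at SMARCD3 (BAF60C), the SMARCD paralog best known from heart and skeletal muscle, which was higher in every library that had IFNγ. SMARCD3 (ENSG00000082014) lies on the minus strand of chromosome 7, at chr7:151238764-151277896 in GRCh38. RefSeq lists 3 start sites for it, and the windows of 300 bases around them are shown because this is the member whose level followed IFNγ. Each runs from 250 bases before the start, 5′ to 3′ on the gene's strand, with the annotated first base in capitals.
SMARCD3 at chr7:151277100-151277399: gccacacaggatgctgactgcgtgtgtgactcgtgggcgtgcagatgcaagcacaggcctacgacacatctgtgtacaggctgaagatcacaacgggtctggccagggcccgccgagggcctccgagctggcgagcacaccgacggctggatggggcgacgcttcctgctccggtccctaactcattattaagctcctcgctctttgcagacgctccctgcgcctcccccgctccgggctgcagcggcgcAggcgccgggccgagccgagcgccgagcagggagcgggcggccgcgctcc
SMARCD3 at chr7:151276685-151276984: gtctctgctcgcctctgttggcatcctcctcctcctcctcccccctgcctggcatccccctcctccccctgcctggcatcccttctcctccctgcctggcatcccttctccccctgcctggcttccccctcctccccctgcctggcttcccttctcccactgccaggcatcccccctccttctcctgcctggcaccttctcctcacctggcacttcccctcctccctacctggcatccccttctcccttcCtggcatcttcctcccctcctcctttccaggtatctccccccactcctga
SMARCD3 at chr7:151248645-151248944: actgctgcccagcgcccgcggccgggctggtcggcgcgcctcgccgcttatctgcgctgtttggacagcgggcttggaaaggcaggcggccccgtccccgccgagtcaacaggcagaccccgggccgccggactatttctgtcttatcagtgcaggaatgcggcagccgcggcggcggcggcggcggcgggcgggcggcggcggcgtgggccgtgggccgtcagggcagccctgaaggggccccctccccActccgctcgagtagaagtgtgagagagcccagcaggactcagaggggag
The interferon pathway's motifs were searched on both strands, the gamma-activated site (GAS, TTCNNNGAA) and the interferon-stimulated response element (ISRE, TTTCNNTTTC), and matches of both may overlap. None of the 3 SMARCD3 windows holds either motif, which says only that these letters are not in these windows. Over 35116 RefSeq promoter windows of this length, 7.66% hold a GAS, 3.57% an ISRE and 10.8% either.

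The member with a match in its only window is SMARCB1, on the plus strand of chromosome 22, whose window is shown with the ISRE match in capitals. The match reads as the reverse complement and begins 90 bases before the start.
SMARCB1 at chr22:23786716-23787015: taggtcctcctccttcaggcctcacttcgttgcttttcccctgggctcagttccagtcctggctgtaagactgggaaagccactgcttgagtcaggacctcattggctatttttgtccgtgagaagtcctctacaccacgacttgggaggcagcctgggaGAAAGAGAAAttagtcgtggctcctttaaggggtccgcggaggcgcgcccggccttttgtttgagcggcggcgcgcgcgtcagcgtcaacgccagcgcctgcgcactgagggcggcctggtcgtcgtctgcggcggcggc
Of the 7 members with a RefSeq window, 15 windows in all, SMARCB1 and SMARCA2 (1 of its 4 windows) had a match. Of the 7 interferon check genes, all with a window, 5 had one. SMARCC1 and SMARCC2 had no window. The levels below show that neither matched member was called in an IFNγ comparison.

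SMARCD3 stood at 8.30, 10.5 and 7.73 CPM in Control and at 20.7, 20.9 and 19.7 CPM in IFN. In Dox it was at 10.6, 15.6 and 7.99 CPM, and in Dox IFN at 22.2, 26.3 and 16.6 CPM. The lowest of the 6 libraries with IFNγ was above the highest of the 6 without, a separation that 2.98% of the 15828 genes showed in this direction. IFN exceeded Control by 2.31-fold (log2 fold change 1.21, SE 0.25, 95% interval 0.66 to 1.75, edgeR adjusted p = 0.0260), and SMARCD3 was the 1 member of 9 called in this comparison, in which 2.21% of all genes were called. Of the 332 genes called higher, 246 had a larger log2 fold change than SMARCD3.

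In edgeR fits without a block on replicate number, the call on SMARCD3 depended on single libraries. It was kept in 7 of the 12 fits that each left out 1 library, and was lost without Control replicate 1, Control replicate 3 or any 1 of the 3 IFN replicates, with log2 fold changes of 1.12 to 1.34 and adjusted p from 0.0085 to 0.149 over the 12 fits. A fit blocked on replicate number gave an adjusted p of 0.0005 (6.02% of all genes called), and DESeq2 gave 0.0003 (3.54% called). The counts behind these levels were modest, 124 to 513 per library, and a share of the gene's exon bases (13.8%) lies opposite exons of AC021097.1, AC005486.1 and CHPF2. Strandedness was not given in the sources used here, so that reads of those genes could be counted with it. CHPF2 itself was at 28.4 ± 1.12 CPM in Control and 28.8 ± 3.08 CPM in IFN (SD, n = 3), and the other antisense genes are not among the table's rows.

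Between Dox and Dox IFN, SMARCD3 differed by 1.90-fold (0.93, SE 0.24, interval 0.39 to 1.47), which missed the threshold (edgeR adjusted p = 0.133) in a comparison where 1.72% of genes were called. The block fit called it (adjusted p = 0.0037, with 4.46% of genes called), as did DESeq2 (0.0173, with 2.80% called), and so did the fit without Dox replicate 2 (0.0263), the library with the highest SMARCD3 level of its group. The test of the difference between the 2 IFNγ effects gave −0.28 (interval −1.04 to 0.48, adjusted p = 1.0), so that the response may have been smaller, equal or larger under doxycycline within that interval. Averaged over both backgrounds, a contrast added after seeing the data, IFNγ moved SMARCD3 by 1.07 (SE 0.17, adjusted p = 0.0038, beside 3.81% of all genes called), and all 12 fits without 1 library kept that call. Doxycycline alone gave 0.36 (interval −0.18 to 0.91, adjusted p = 0.566), and Dox replicate 3 lay inside the Control range. Without Dox replicate 2 that difference was 0.071, and without Dox replicate 3 it was 0.56.

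The summed level of the mesenchymal or fibroblast markers (FN1, COL1A1 and others, 6 of 7 at 1 CPM or more on average) also moved with IFNγ. The sum was 410 to 668 CPM in Control, 632 to 1124 CPM in Dox, 1817 to 3348 CPM in IFN and 1279 to 2720 CPM in Dox IFN. Single markers were not compared between groups, so the sum does not say how many of them moved. The part of these markers in the SMARCD3 result was not tested.

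**Figure D1:**
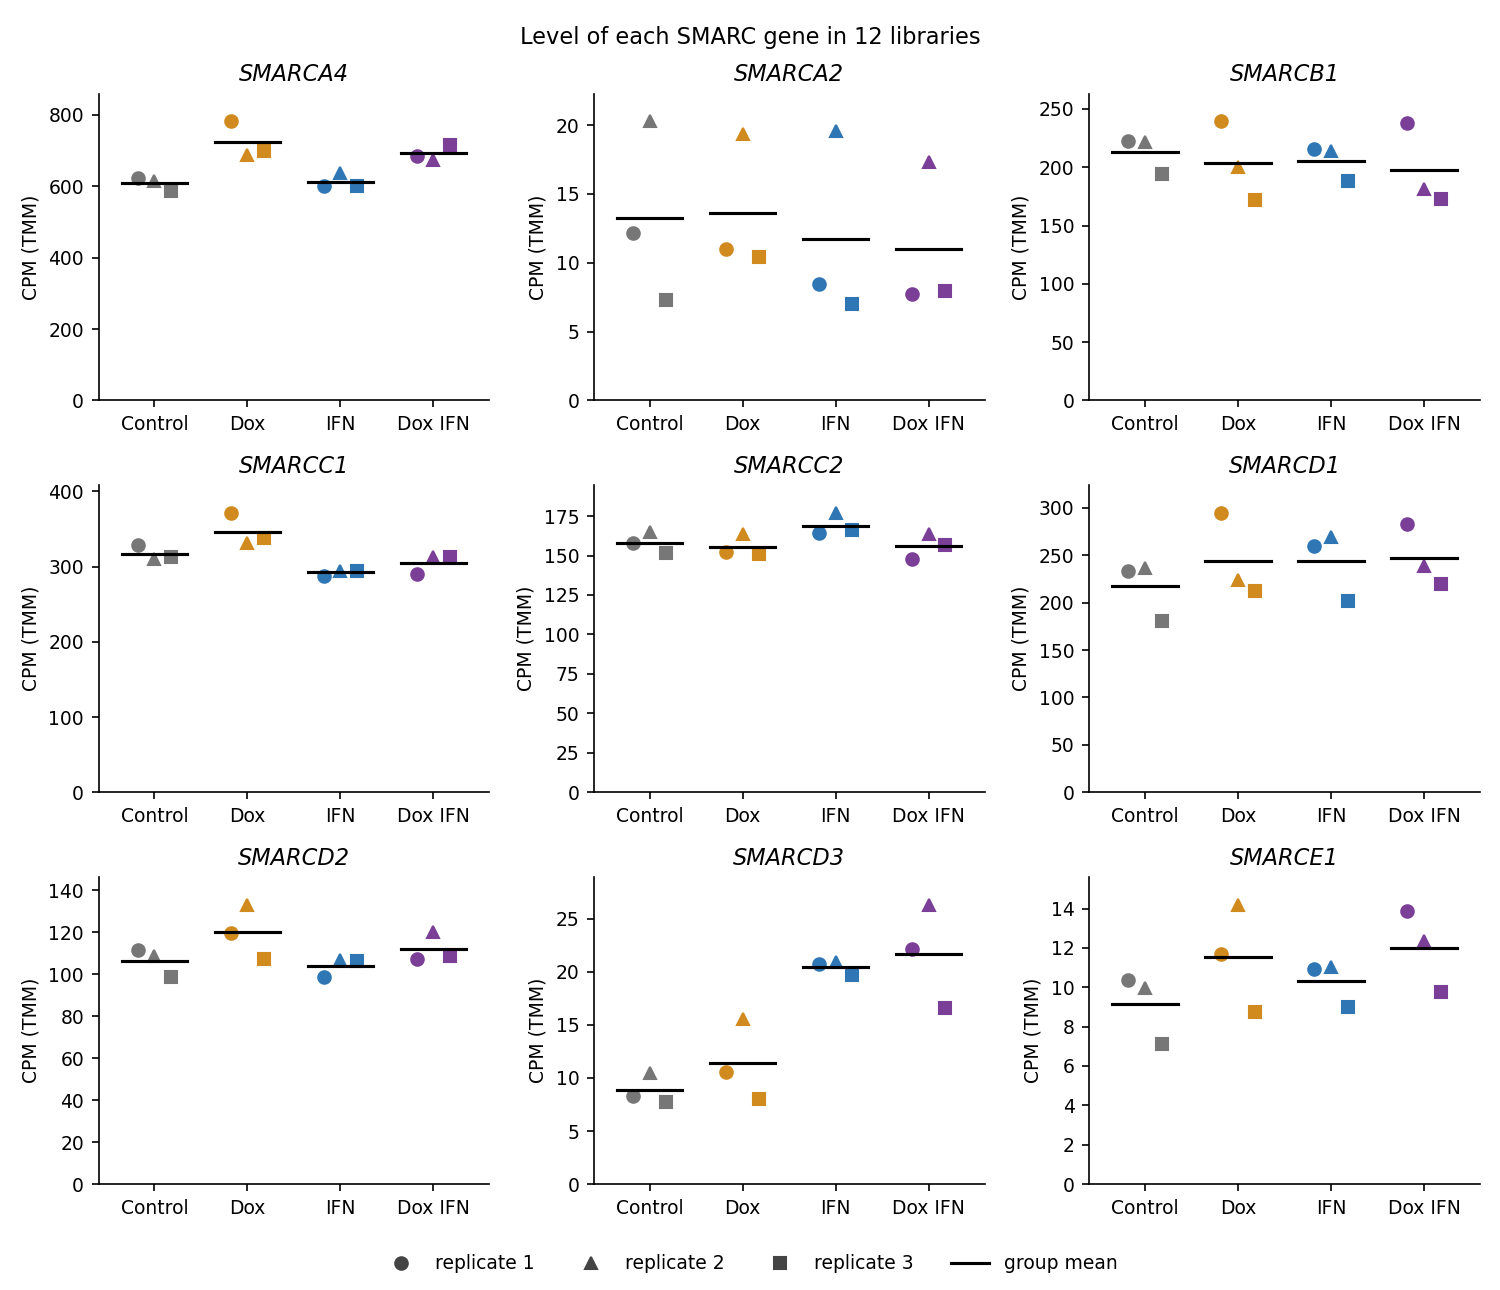
Level of each of the 9 genes in CPM on TMM-scaled library sizes (vertical axes from 0) in the 3 libraries of each group, with the marker shape giving the replicate number and the line the group mean. SMARCD3 lies between 16.6 and 26.3 CPM in the 6 libraries with IFNγ and between 7.73 and 15.6 CPM in the 6 without, and SMARCA4 is higher in all 6 libraries with doxycycline than in the 6 without.

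The other SMARCD paralogs were far more abundant and were called in no comparison. SMARCD1 (BAF60A), the widely expressed form, was at 234, 237 and 181 CPM in Control, 294, 224 and 212 CPM in Dox, 260, 269 and 202 CPM in IFN, and 283, 239 and 219 CPM in Dox IFN. Its groups overlapped in all 4 pairwise comparisons. IFN and Control differed by 0.17 (interval −0.21 to 0.54, adjusted p = 1.0), and Dox and Control by 0.17 (interval −0.21 to 0.54, adjusted p = 0.737), which was 0.0050 without Dox replicate 1, 0.048 without Control replicate 3 and 0.25 without Dox replicate 3. SMARCD2 (BAF60B), known for its role in granulocyte development, was at 112, 109 and 98.9 CPM in Control, 120, 133 and 107 CPM in Dox, 98.6, 107 and 106 CPM in IFN, and 107, 120 and 109 CPM in Dox IFN. Its widest difference was 0.17 in Dox against Control (interval −0.04 to 0.39, adjusted p = 0.476), with 1 Dox library inside the Control range, and it ran from 0.094 without Dox replicate 2 to 0.25 without Dox replicate 3.

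Per exon base, SMARCD3 made up 2.35% ± 0.27 of the 3 SMARCD genes in Control, 2.67% ± 0.84 in Dox, 4.98% ± 0.29 in IFN and 5.05% ± 0.91 in Dox IFN (SD, n = 3). The 6 libraries with IFNγ held shares of 4.25% to 6.04% and the 6 without held 2.07% to 3.64%. SMARCD1 contributed 58.2% ± 2.16 in Control and 59.7% ± 4.11 in IFN, and SMARCD2 39.5% ± 2.21 and 35.3% ± 3.85. Even with IFNγ, then, SMARCD3 was the least abundant mRNA for this position in every library. With the length of the longest transcript in place of all exon bases, its share was 3.58% ± 0.41 in Control and 7.50% ± 0.43 in IFN.

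**Figure D2:**
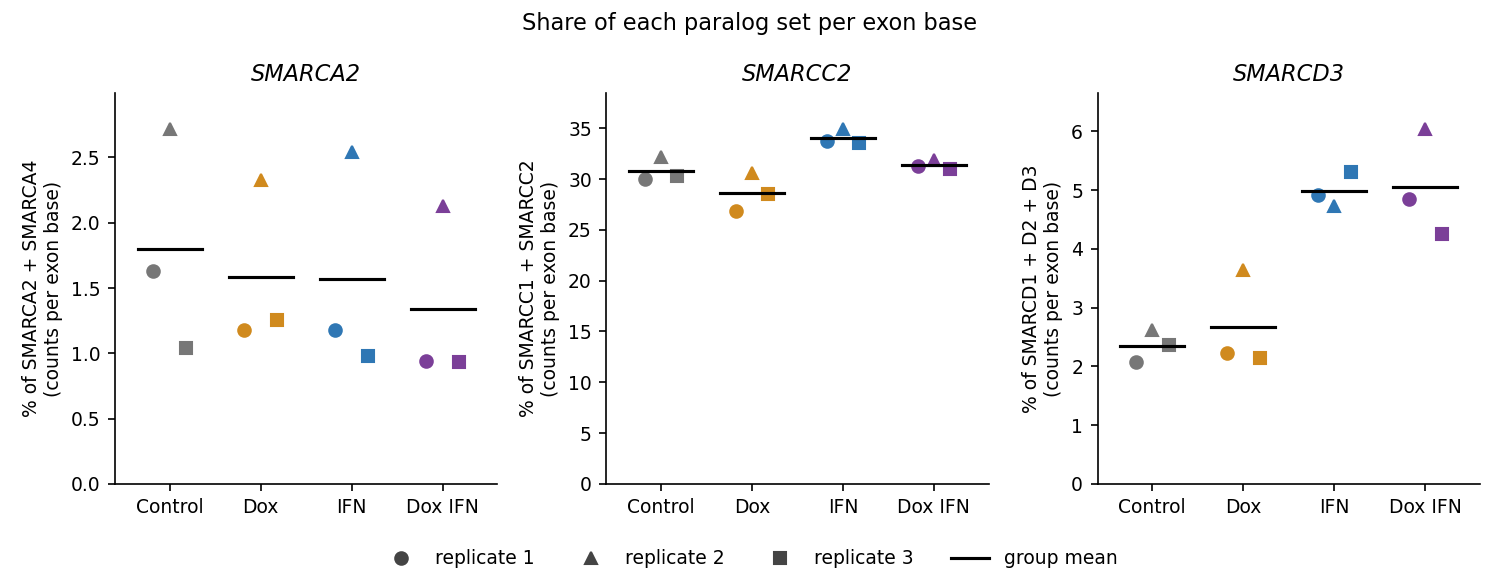
Share of SMARCA2, SMARCC2 and SMARCD3 in the sum of their paralog set (percent, from counts per exon base, axes from 0) in each library, by group, with the replicate number as marker shape and the group mean as a line. SMARCD3 goes from 2.35% in Control to 4.98% in IFN, and SMARCA2 is at 2.72% or less in every library, highest at replicate 2 of each group.

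SMARCA4, the ATPase with the higher mRNA level by far, stood higher in the 6 libraries with doxycycline than in the 6 without. EdgeR without the block on replicate number did not call SMARCA4 between Dox and Control. SMARCA4 (ENSG00000127616, chr19:10960825-11079426, plus strand) was at 624, 615 and 588 CPM in Control and 781, 688 and 697 CPM in Dox. With IFNγ it was at 601, 637 and 600 CPM without doxycycline and 685, 675 and 715 CPM with it. That separation was seen in 2.86% of all genes. Dox exceeded Control by 1.19-fold (log2 fold change 0.25, SE 0.08, interval 0.07 to 0.42, unadjusted p = 0.0107), which did not pass after adjustment (edgeR adjusted p = 0.190).

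No member was called between Dox and Control by edgeR without the block, where 1.23% of genes were called. SMARCA4 was the 1 member with an unadjusted p under 0.05. The block fit (adjusted p = 0.0403) and DESeq2 (0.0097) each called SMARCA4, where they called 13.9% and 6.48% of all genes. With IFNγ present, doxycycline gave SMARCA4 0.17 (interval −0.0016 to 0.35, adjusted p = 0.414), again with no member called by edgeR, by DESeq2 or at an unadjusted p under 0.05, beside 0.670% of all genes called by edgeR. The interaction for SMARCA4 was −0.07 (interval −0.32 to 0.18, adjusted p = 1.0). Averaged over both backgrounds, in the added contrast, the difference was 0.21 (SE 0.06, adjusted p = 0.0473), a contrast in which 7.68% of all genes were called. That call was lost in each of the 12 fits without 1 library (adjusted p 0.0548 to 0.115), and other settings gave adjusted p from 0.0004 to 0.201. IFNγ alone left SMARCA4 at 0.01 (interval −0.17 to 0.19, adjusted p = 1.0).

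The share of counts on the 13 mitochondrial mRNAs moved with doxycycline. It was 3.35% to 4.99% in Control and 2.90% to 4.42% in IFN, and 0.856% to 1.30% in Dox and 0.768% to 2.58% in Dox IFN. All 13 had a negative log2 fold change in Dox against Control, 6 of them called lower, and 13 with the replicate block. The part of this shift in the SMARCA4 result was not tested.

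SMARCA2, the alternative ATPase, was low and followed the replicate number more than any treatment. SMARCA2 (ENSG00000080503, chr9:1980290-2193624, plus strand) was at 12.2, 20.3 and 7.29 CPM in Control, 11.0, 19.4 and 10.4 CPM in Dox, 8.46, 19.6 and 7.02 CPM in IFN, and 7.70, 17.3 and 7.97 CPM in Dox IFN. Replicate 2 was the highest of its group in all 4 groups, and all 4 such libraries exceeded the other 8, as was so for 3.82% of genes. No treatment contrast was called, and the intervals were wide: Dox against Control gave 0.04 (interval −1.05 to 1.13, adjusted p = 0.988) and IFN against Control −0.18 (interval −1.28 to 0.91, adjusted p = 1.0). With the replicate number as a block the intervals narrowed, to −0.27 to 0.44 around 0.09 for Dox (adjusted p = 0.760) and −0.57 to 0.14 around −0.22 for IFN (adjusted p = 0.565), so that a 2-fold decrease lies inside the intervals without the block and outside those with it. Per exon base SMARCA2 made up 1.80% ± 0.85 of the 2 ATPase mRNAs in Control, 1.59% ± 0.64 in Dox, 1.57% ± 0.85 in IFN and 1.34% ± 0.69 in Dox IFN (SD, n = 3), so that SMARCA4 accounted for at least 97.3% in every library.

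The genes whose log2 CPM ran most like SMARCA4 over the 12 libraries were CECR7 (Pearson r = 0.965), ZZEF1 (0.965) and EHMT2 (0.957). For SMARCA2 they were PDE5A (0.957), ZNF732 (0.954) and FBH1 (0.951). These are the highest values over all genes tested, across libraries that share groups and replicate numbers, and describe likeness only.

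The paired scaffold subunits SMARCC1 and SMARCC2 were called in no comparison by edgeR. SMARCC1 (BAF155, chr3:47585272-47782106) was at 329, 310 and 313 CPM in Control, 371, 331 and 337 CPM in Dox, 287, 294 and 294 CPM in IFN, and 290, 312 and 313 CPM in Dox IFN. All 3 Dox libraries exceeded Control and all 3 IFN libraries lay below it, as was so for 10.1% and 6.24% of all genes. Neither difference was called, at 0.13 (interval −0.04 to 0.30, adjusted p = 0.515, and 0.074 without Dox replicate 1) for Dox and −0.12 (interval −0.29 to 0.05, adjusted p = 0.922) for IFN. Dox IFN against Dox gave −0.18 (interval −0.36 to −0.01), with an unadjusted p of 0.0383 and an adjusted p of 0.705. The averaged IFNγ contrast for SMARCC1 gave −0.15 (adjusted p = 0.248, and 0.0278 by DESeq2, which called 5.92% of all genes). SMARCC2 (BAF170, chr12:56162983-56189567) was at 158, 165 and 152 CPM in Control, 152, 164 and 151 CPM in Dox, 164, 177 and 166 CPM in IFN, and 148, 164 and 157 CPM in Dox IFN. Its widest difference was −0.11 in Dox IFN against IFN (interval −0.29 to 0.06, adjusted p = 0.645), where the highest Dox IFN library fell just under the lowest IFN library, as in 8.41% of all genes. A part of the exon bases of SMARCC2 (6.01%) lies opposite exons of MYL6. MYL6 was at 236 ± 51.0 CPM in Control, 141 ± 50.5 in Dox, 231 ± 77.6 in IFN and 163 ± 16.9 in Dox IFN (SD, n = 3). Whether reads of MYL6 were counted with SMARCC2 was not tested. Per exon base SMARCC1 formed 69.2% ± 1.16 of the pair in Control, 71.3% ± 1.91 in Dox, 65.9% ± 0.74 in IFN and 68.6% ± 0.48 in Dox IFN (SD, n = 3). The size of this share depended on the length used. With the longest transcript it was 57.3% ± 1.33 in Control, 59.9% ± 2.24 in Dox, 53.7% ± 0.82 in IFN and 56.7% ± 0.54 in Dox IFN.

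SMARCB1, the core subunit lost in rhabdoid tumours, varied more between replicate numbers than between groups. SMARCB1 (chr22:23786931-23838008) was at 223, 221 and 194 CPM in Control, 239, 200 and 172 CPM in Dox, 215, 214 and 188 CPM in IFN, and 238, 182 and 173 CPM in Dox IFN. Replicate 1 was the highest and replicate 3 the lowest of every group. Its 4 pairwise log2 fold changes lay between −0.06 and −0.05, and the interval for Dox against Control was −0.39 to 0.27 (adjusted p = 0.912). A part of its exon bases (17.7%) lies opposite exons of DERL3, which was at no more than 0.259 CPM in any library.

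SMARCE1, the HMG-box subunit, was measured at a low level and shares most of its coding bases with another gene. SMARCE1 (chr17:40624962-40648864, minus strand) was at 10.4, 9.98 and 7.11 CPM in Control, 11.7, 14.2 and 8.74 CPM in Dox, 10.9, 11.0 and 9.01 CPM in IFN, and 13.9, 12.4 and 9.77 CPM in Dox IFN. These rest on 114 to 274 counts per library, against 2969 to 5020 for SMARCB1. In GENCODE 29, 70.5% of the coding bases of SMARCE1 and 19.8% of its exon bases are also exons of AC073508.2, a readthrough gene on the same strand that is not among the table's rows. Whether reads shared by both genes were dropped in counting was not tested. Dox against Control gave 0.33 (interval −0.16 to 0.83, adjusted p = 0.566), with 0.16 without Dox replicate 2, 0.18 without Control replicate 3 and 0.49 without Dox replicate 3. The averaged doxycycline contrast gave 0.27 (adjusted p = 0.332), called in the fit blocked on replicate number (adjusted p = 0.0473, a fit that called 29.0% of all genes).

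Between genes, levels were compared per kilobase of exon, as TPM, in Control only. SMARCD1 (147 ± 22.3 TPM), SMARCC1 (144 ± 2.12 TPM) and SMARCA4 (134 ± 5.83 TPM) were the highest (SD, n = 3), and the range of SMARCD1 overlapped that of both others. SMARCD2 (98.8 ± 6.37), SMARCC2 (64.1 ± 4.48) and SMARCB1 (44.6 ± 3.70) followed without overlap, and SMARCD3 (5.91 ± 1.17), SMARCA2 (2.49 ± 1.31) and SMARCE1 (1.70 ± 0.33) were lowest, the ranges of SMARCA2 and SMARCE1 overlapping. The order depends on the length used: per coding base SMARCB1 ranked 1 of 9 and SMARCA4 ranked 3 of 9, and per base of the longest transcript SMARCA4 ranked 1 of 9 and SMARCB1 ranked 4 of 9. SMARCD3, SMARCA2 and SMARCE1 held the last 3 ranks on all 3 lengths. All 3 lengths include the bases that SMARCE1 shares with AC073508.2, and whether dropped reads lowered its rank was not tested.

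**Figure D3:**
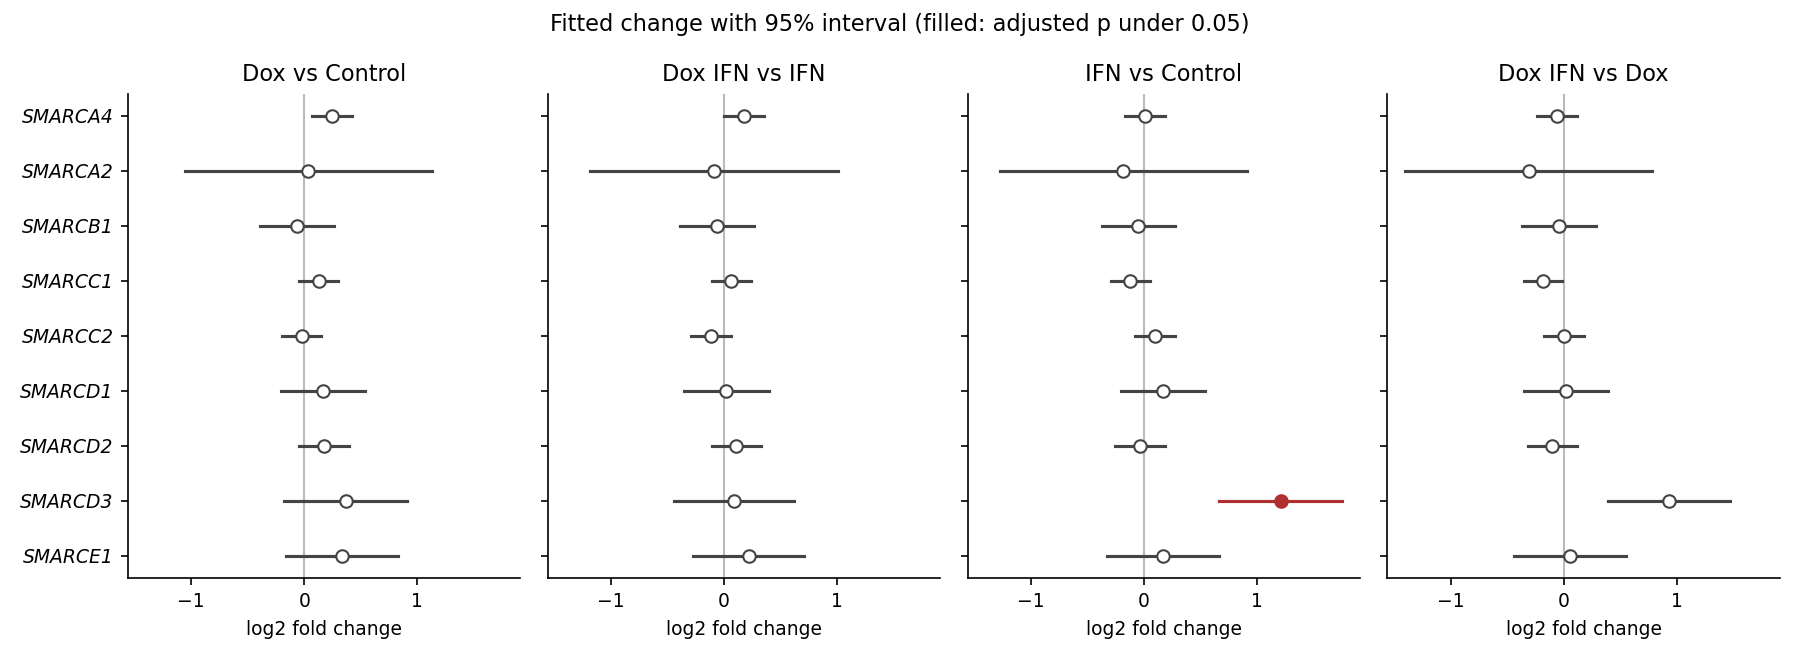
Fitted log2 fold change of each gene (horizontal axis, points) with its 95% interval (lines) in the 4 pairwise comparisons, filled where the edgeR adjusted p is under 0.05. The filled point is SMARCD3 in IFN against Control (1.21), and SMARCA2 has the widest intervals in every comparison.

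Differences between replicate numbers were general to these libraries and were seen in the members at about the share of all genes. In a model with group and number, 5 of the 9 members (SMARCA2, SMARCB1, SMARCD1, SMARCD3 and SMARCE1) differed between numbers at an adjusted p under 0.05, beside 44.0% of all genes tested. SMARCA2 had the largest spread of the 9, 1.19 on the log2 scale between the number means, above that of 92.6% of genes tested (adjusted p = 0.0002). For SMARCD1 (0.39, adjusted p = 0.0059) and SMARCE1 (0.43, adjusted p = 0.0121), the 4 libraries of replicate 3 lay below the other 8, as was so for 5.88% of genes. SMARCB1 (0.33, adjusted p = 0.0108) and SMARCD3 (0.52, adjusted p = 0.0198) completed the 5. In SMARCA4, SMARCC1, SMARCC2 and SMARCD2 the spread between numbers was at most 0.15. The number spread exceeded the spread between group means in 4 of 9 members, against 49.1% of all genes.

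**Figure D4:**
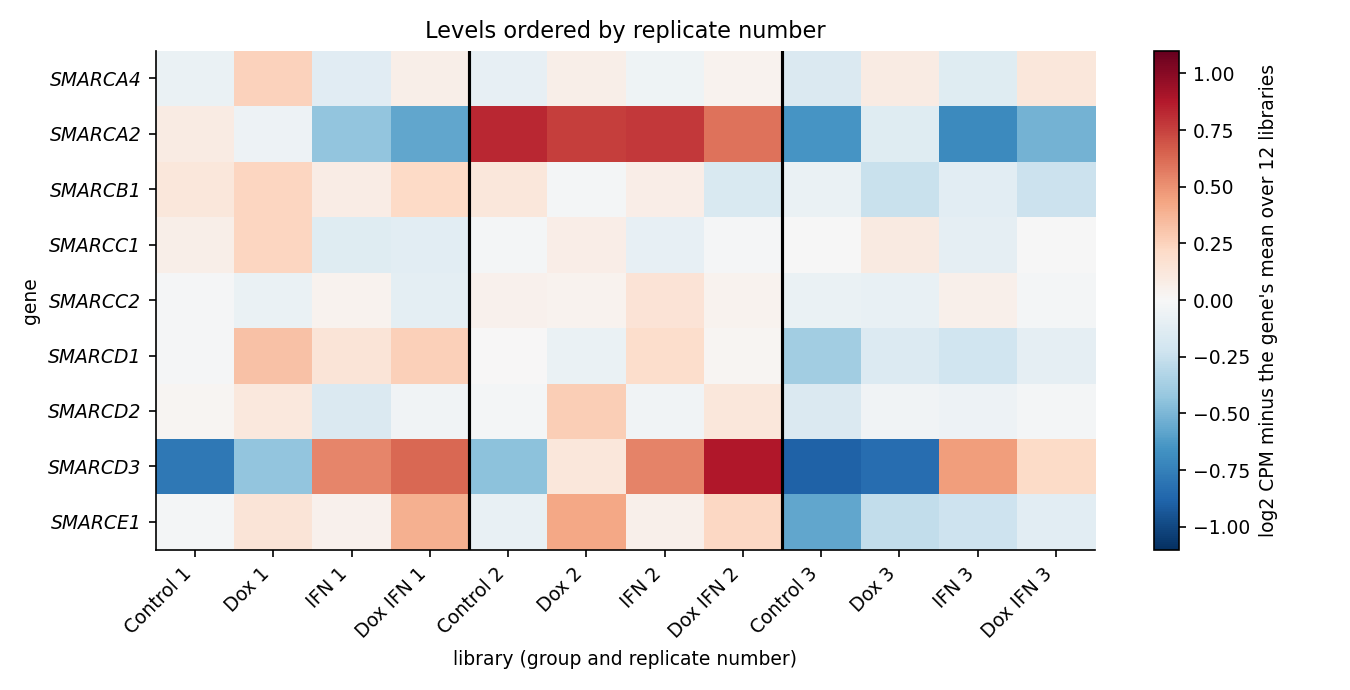
Log2 CPM of each gene minus its mean over the 12 libraries (colour scale), with libraries ordered by replicate number and then by group. SMARCA2 is 0.60 to 0.83 above its mean in the 4 libraries of replicate 2, and SMARCD3 is above its mean in the 6 libraries with IFNγ and in Dox replicate 2 (0.12).

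Other parts of the complex and other remodellers were read from 2 further lists. Of 20 other SWI/SNF subunits, a list that includes the targeted ARID1A, 19 were tested. Between Dox and Control 1 was called: ARID1B, the paralog of ARID1A. ARID1B was at 141, 138 and 118 CPM in Control, 203, 200 and 169 CPM in Dox, 146, 154 and 151 CPM in IFN, and 173, 188 and 193 CPM in Dox IFN. Every library with doxycycline exceeded every library without it, as was so for 2.86% of all genes. Dox against Control gave 0.52 (SE 0.10, edgeR adjusted p = 0.0383). The block fit gave ARID1B an adjusted p of 0.0045 (13.9% of all genes called) and DESeq2 gave 7.1e-05 (6.48% called). Without the block, the call on ARID1B was kept in 2 of the 12 fits without 1 library, those without Dox replicate 3 or Dox IFN replicate 2 (adjusted p from 0.0380 to 0.174 over the 12). It was lost without a filter and with only the libraries compared (0.198). ACTL6B, the neuronal actin-like subunit and the one of the list with the largest difference, was chosen for description after its values were seen and went the other way. It was at 43.8, 57.2 and 59.3 CPM in Control, 27.2, 33.0 and 34.2 CPM in Dox, 45.6, 66.0 and 60.9 CPM in IFN, and 34.5, 34.6 and 31.5 CPM in Dox IFN. Every library with doxycycline lay below every library without it, as was so for 3.09% of all genes. Dox against Control gave −0.77 for ACTL6B (SE 0.16, edgeR adjusted p = 0.0541, against 0.0025 with the replicate block and 0.0011 by DESeq2), and Dox IFN against IFN gave −0.78 (0.0615, 0.0032 and 0.0011). BICRA, a subunit of the non-canonical form, gave 0.45 in Dox against Control (edgeR adjusted p = 0.136, block 0.0170, DESeq2 0.0174). In Dox against Control the median log2 fold change of the 19 was 0.16, against 0.17 for the 9 members and −0.0012 for all genes tested. None of the 19 was called by edgeR without the block in the IFNγ comparisons, in Dox IFN against IFN or in the interaction. In that fit 0, 1, 4 and 1 had an unadjusted p under 0.05 for IFN against Control, Dox IFN against Dox, Dox IFN against IFN and the interaction. The block fit called 2 of them lower in Dox IFN against IFN, ACTL6B (adjusted p = 0.0032) and ARID1A (0.0111).

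Of 19 ATPases of other remodelling families, 2 were called higher in Dox than in Control by edgeR, where 1.23% of all genes were called in either direction, and 11 were called with the replicate block, where 13.9% of all genes were. EP400, the ATPase of the TIP60 complex, was at 142, 118 and 110 CPM in Control and 218, 191 and 165 CPM in Dox (0.63, SE 0.13, adjusted p = 0.0476). INO80, the motor of its own complex, was at 41.9, 41.3 and 37.2 CPM in Control and 66.9, 55.4 and 63.0 CPM in Dox (0.62, SE 0.13, adjusted p = 0.0464). All 3 Dox libraries exceeded Control for both genes, as was so for 10.1% of all genes. The block fit gave an adjusted p of 0.0011 for EP400 and 0.0047 for INO80. DESeq2 gave 0.0004 for each (6.48% of all genes called). Without the block, each call was kept in 1 of the 12 fits without 1 library, that without Dox replicate 3 for EP400 (adjusted p from 0.0496 to 0.218 over the 12) and that without Dox IFN replicate 2 for INO80 (0.0235 to 0.214). The median of the 19 was 0.36 in this comparison and 0.08 in IFN against Control. In Dox IFN against IFN, edgeR without the block called neither EP400 nor INO80. EP400 was at 130, 117 and 128 CPM in IFN and 167, 144 and 138 CPM in Dox IFN (0.26, adjusted p = 0.483, block 0.0692). INO80 was at 44.4, 43.5 and 39.3 CPM in IFN and 67.3, 49.8 and 64.3 CPM in Dox IFN (0.51, adjusted p = 0.120, block 0.0137, DESeq2 0.0079). Dox IFN against Dox gave EP400 −0.35 (edgeR adjusted p = 0.501, block 0.0295, with 4.46% of all genes called by the block fit).

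CHD5, a remodeller known as a tumour suppressor candidate of the short arm of chromosome 1 in neuroblastoma, was the 1 other ATPase that edgeR without the block called for IFNγ. SMARCA1, an ISWI ATPase, was called in the block fit (0.35 in IFN against Control, adjusted p = 0.0170, and 0.34 in Dox IFN against Dox, 0.0247), and its paralog SMARCA5 by DESeq2 (0.18 and 0.19, adjusted p = 0.0389 and 0.0379). CHD5 was at 0.0615, 0.0497 and 0.436 CPM in Control and 14.3, 14.6 and 6.87 CPM in IFN (adjusted p = 0.0014). In Dox it was at 0.286, 0.673 and 0.0579 CPM, and in Dox IFN at 12.3, 10.9 and 6.76 CPM (adjusted p = 0.0046). Both calls on CHD5 were kept in all 12 fits without 1 library. Several of the libraries without IFNγ were under the detection floor for CHD5, so no fold is given.

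No member was called in the interaction, in which edgeR called 0 genes of all tested, 99 had an unadjusted p under 0.05, and DESeq2 called 2. None of the 9 members was among the 99. The fitted interactions of the members ran from −0.28 (SMARCD3) to 0.002 (SMARCB1), with adjusted p of 1.0 throughout, and at this number of libraries the 95% intervals ran from −1.67 to 1.42 for SMARCA2 (−0.64 to 0.37 with the block) and from −0.32 to 0.18 for SMARCA4.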

How the data were processed

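RNA-seq libraries of 12 samples (4 groups of 3, grouped by their labels) were analysed from 1 table of read counts per gene, deposited by the authors as whole numbers without normalization. The aligner, counter, genome build and strandedness are not given in the sources used here. DESeq2 is named in the submitters' processing notes. The 3 deposited comparison tables hold the authors' fold changes and p-values with 18 per-library columns, and none of these was used.

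Counts were fitted with edgeR 4.0.16 in R 4.3.3 (TMM scaling, filterByExpr with a minimum count of 10, quasi-likelihood test, two-sided) in 1 model of all 12 libraries. P-values were adjusted by the Benjamini-Hochberg method over the 15828 genes tested, and a gene was called at an adjusted p under 0.05. DESeq2 1.42.0 was an alternative, as were the replicate number as a block, library size alone, no filter and leaving out each library. The fits that each left out 1 library were run without the block, and none was run with it. Where edgeR is named alone, the fit had no block. The scripts were tested on simulated data, where the recovery asked of edgeR was relaxed after a first miss. DESeq2 made several times as many false calls as edgeR there. The simulated counts used dispersions estimated by edgeR and no effect of replicate number, so these rates need not hold in the real libraries. Calls made by DESeq2 alone are still read with caution. CPM were computed on TMM-scaled library sizes. Intervals are 95%.

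Replicate numbers were shared by the groups in the labels. Deviations from group means correlated at 0.34 to 0.80 in all 18 pairs with the same number. The 36 other pairs gave −0.63 to 0.14, so the numbers pair the samples. The blocked value is printed where it changes the call of a member. For other named genes it is printed in some comparisons only.

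All 43769 gene identifiers were found in GENCODE 29 (GRCh38), which gave positions and lengths, and promoter windows (300 bases) were taken from RefSeq, GRCh38.p14. The counts' own build was not given, so positions describe the annotation. Named genes were the 9 members, ARID1A, those called among the other SWI/SNF subunits and other remodeller ATPases (ACTL6B, BICRA, SMARCA1 and SMARCA5 were added after their values were seen), and the 3 genes most alike to each ATPase. 1 gene of the interferon check is not reported here. The rule for the members and the lists were set with earlier results of these data known.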

Additional observations from a re-analysis of the deposited data

How the results depend on the processing

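SMARCD3 stayed positive in both IFNγ comparisons under every alternative run, and SMARCA4 in both doxycycline comparisons. Of the 9 members, the count called between Dox and Control was 0, and 1 (SMARCA4) with the replicate block or DESeq2. Between Dox IFN and Dox it was 0, and 1 (SMARCD3) with the block or DESeq2 and 0 to 1 over fits without 1 library. Between IFN and Control it was 1, and 0 to 1 without 1 library. In the added averages, doxycycline went from 1 to 2 with the block, to 0 without a filter and to 0 in every fit without 1 library, and IFNγ from 1 to 2 by DESeq2. The block changed no other member's call. For the other SWI/SNF subunits, Dox against Control went from 1 to 3 with the block or DESeq2. That count went to 0 without a filter or with only the libraries compared, and was 0 to 1 without 1 library. Dox IFN against IFN went from 0 to 2 (ACTL6B and ARID1A) with the block or DESeq2. For the other remodeller ATPases, Dox against Control went from 2 to 11 with the block, 4 with library size alone, 5 by DESeq2, 0 without a filter or with only the libraries compared, and 0 to 2 without 1 library. Their count in Dox IFN against IFN went from 0 to 6 with the block, 2 by DESeq2 and 0 to 1 without 1 library, in IFN against Control from 1 to 2 with the block or DESeq2, and in Dox IFN against Dox from 1 to 3 with the block and 2 by DESeq2. Scaling by library size alone raised the median of all genes by 0.09 in both doxycycline comparisons, and called 199 genes higher and 89 lower between Dox and Control in place of 78 and 116. Over all genes that comparison called 2200 with the block, 825 by DESeq2, 119 without a filter, 16 with only the libraries compared and 42 (without Control replicate 3) to 195 (without Dox IFN replicate 2) in the fits without 1 library, against 194. The remaining changes of sign concern differences that no fit called, and their cause was not tested. With library size alone, SMARCB1 moved to 0.026 and SMARCC2 to 0.064 in Dox against Control, SMARCA4 to −0.033 in IFN against Control, SMARCA2 to 0.0052 and SMARCB1 to 0.032 in Dox IFN against IFN, and SMARCC2 to −0.033 and SMARCD1 to −0.016 in Dox IFN against Dox. Without 1 library, Dox against Control ran from −0.31 to 0.48 for SMARCA2 and −0.19 to 0.045 for SMARCB1. IFN against Control ran from −0.020 to 0.019 for SMARCA4, −0.78 to 0.26 for SMARCA2 and −0.11 to 0.00058 for SMARCB1. Dox IFN against IFN ran from −0.58 to 0.50 for SMARCA2, −0.22 to 0.025 for SMARCB1, −0.090 to 0.10 for SMARCD1 and −0.079 to 0.24 for SMARCD3. Dox IFN against Dox ran from −0.79 to 0.035 for SMARCA2, −0.20 to 0.086 for SMARCB1, −0.029 to 0.044 for SMARCC2, −0.088 to 0.18 for SMARCD1 and −0.11 to 0.23 for SMARCE1. The interaction ran from −0.61 to 0.47 for SMARCA2, −0.15 to 0.13 for SMARCB1, −0.25 to 0.014 for SMARCD1, −0.14 to 0.014 for SMARCD2, −0.48 to 0.013 for SMARCD3 and −0.28 to 0.059 for SMARCE1. With 3 libraries a group, the intervals limit what can be seen most for SMARCA2, SMARCD3 and SMARCE1.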
